A study of Mus musculus with 7 samples.

Results

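The cytochrome P450 genes were taken as all autosomal protein-coding genes of the mm9 annotation whose symbol begins with Cyp and a digit, which gave 98 of 21418 genes on 15 chromosomes. CTCF and Rad21, a subunit of cohesin, were profiled by ChIP-seq in livers of 8-week-old male CD-1 mice, an outbred stock, with 4 CTCF libraries and 3 Rad21 libraries. All livers shared this sex, age and stock, no treatment or genotype was contrasted, and each factor was deposited as 1 peak list over its pooled libraries. Another list held the CTCF sites found in at least 2 livers, sorted by the authors into 4 classes. Because no value per liver could be used, no statistical test was made, and every interval given here covers counting error only, not variation between mice.

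Cytochrome P450 enzymes are heme monooxygenases. Members of families 1 to 3 act mainly on drugs and other foreign compounds, several family 4 enzymes hydroxylate fatty acids at their far end, and others make or degrade sterols, bile acids, steroid hormones and the active forms of vitamins A and D. Many are most abundant in liver, and large subfamilies lie in tandem arrays of near-identical genes. CTCF is a DNA-binding protein at which cohesin halts while it extrudes chromatin loops, and pairs of CTCF sites with motifs pointing toward each other lie at the ends of many topologically associating domains (TADs) and of the smaller loops inside them.

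By position, 37 members belonged to the arrays of the Cyp2c (14 genes), Cyp3a (8), Cyp2d (9) and Cyp4a (6) subfamilies. A further 35 lay in other clusters, with another member within 100 kb, and 26 were single. Cyp2c44 and Cyp3a13 lie away from their subfamilies and counted as single. The window of a gene was its span and 20 kb on each side, and a peak belonged to it if at least 1 bp overlapped. The windows of all members held 251 of the 74980 autosomal CTCF peaks, 277 of the 66091 Rad21 peaks and 176 of the 51203 classed CTCF sites. The peak score used throughout was 10 times the −log10 q-value of the peak caller. Genes of 1 array share peaks, so peaks were counted once over the joined windows of a group.

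The nearest TAD anchors on either side of the 4 arrays are shown first, with the anchors inside them. An outer pair was not shown to delimit a single TAD. At Cyp3a another TAD anchor lay inside the array, and at Cyp2d both outer motifs were on the plus strand. Peaks of an array were counted from the start of its first gene to the end of its last, not out to the outer anchors. An anchor was a CTCF site that the authors assigned to the end of a TAD (TAD anchor) or of a predicted loop within it (intra-TAD anchor). Both assignments used the strand of the CTCF motif, so the orientations are a description of the class and not a result. Each line gives the 19 bases of the best motif match in capitals with 5 bases on each side in lower case, read from mm9 in the direction of the motif, 5′ to 3′.
Cyp2c, left (chr19:39056646-39056674, plus strand): acagcCATCCACTAGAGGGCGGGCtttga
Cyp2c, right (chr19:40300098-40300126, minus strand): acccaCAGCCAGCAGGTGGCAGTGtaggc
Cyp3a, left (chr5:145975721-145975749, plus strand): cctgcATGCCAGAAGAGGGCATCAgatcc
Cyp3a, inside (chr5:146778844-146778872, minus strand): cttggAGGCCAGAAGATGGCACTGgagcc
Cyp3a, right (chr5:147115237-147115265, minus strand): catgaAGGCCTGAAGGGGGCATCTggggc
Cyp2d, left (chr15:82096971-82096999, plus strand): atttcTGGCCACTAGAGGGCAGCTggacc
Cyp2d, inside (chr15:82248137-82248165, minus strand): cacagTGGCCAGTGGGTGGCAGTGgttct
Cyp2d, right (chr15:82635866-82635894, plus strand): aacaaCCATCACTGGGGGGAGCCAgagat
Cyp4a, left (chr4:114669776-114669804, plus strand): atgttGCAACACTAGGGGGCAGCAcagaa
Cyp4a, right (chr4:115382599-115382627, minus strand): tccttTGGCCAGCAGAGGGAAGCActgaa

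The motif was learned from 2000 deposited anchors on odd-numbered chromosomes, and its most frequent bases read TGGCCACCAGGGGGCGCCA. On the even-numbered chromosomes the best match lay on the deposited motif strand at 98.5% of 19170 sites. The sites around the P450 arrays matched this consensus at 11 to 14 of 19 positions. The Cyp3a and Cyp2d right anchors had the lowest deposited motif scores of the 10 sites (both 11.6) and the highest CTCF peak scores (5032 and 5193). At the Cyp2c, Cyp3a and Cyp4a arrays the enclosing motifs faced each other, plus on the left and minus on the right. At Cyp2d both were on the plus strand.

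The Cyp2c array held few CTCF peaks between its first and last gene. It spanned 1180.3 kb (chr19:39081509-40261823) and contained 7 CTCF and 11 Rad21 peaks and no anchor, or 0.593 CTCF peaks per 100 kb of span (95% exact Poisson interval 0.238 to 1.22). The enclosing TAD anchors lay 24.9 kb and 38.3 kb outside it, with CTCF scores of 3553 and 3628. Most of its stronger CTCF peaks stood at its ends. Within Cyp2c55, the first gene, a CTCF peak of score 2823 overlapped a Rad21 peak of 1279. Cyp2c70, the last gene, whose product makes muricholic bile acids in mice, had 3 CTCF peaks of scores 404, 666 and 225, each with a Rad21 peak and the last with its summit just outside the array, and was the array's 1 gene with a CTCF peak at its start. Between those 2 genes 4 CTCF peaks were listed. A peak between Cyp2c69 and Cyp2c37, outside the window of every member, scored 1172 and overlapped a Rad21 peak of 157. The others were weak, with a score of 55 within Cyp2c67 and of 108 both at 18.1 kb from the start of Cyp2c37 and at 2.59 kb from the start of Cyp2c54.

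The widest stretch without a CTCF summit in the Cyp2c array was 619.9 kb and contained the whole of Cyp2c65, Cyp2c66, Cyp2c29, Cyp2c38 and Cyp2c39. Among 74791 intervals between neighbouring autosomal CTCF summits, whose median was 10.9 kb, 322 (0.431%) were at least as wide. Cyp2c29, an abundant drug-metabolizing enzyme of mouse liver, lay 213 kb from the nearest CTCF summit. It still had 3 Rad21 peaks, of scores 66, 25 and 53, none with a CTCF peak. In the Cyp2c windows 70.4% of 50-base words occurred once in mm9, the share that reads mapped to a single place could cover.

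The Cyp3a array was split by a TAD anchor. It spanned 819 kb (chr5:146106148-146924861) with 9 CTCF and 15 Rad21 peaks, and its enclosing anchors stood 130.4 kb and 190.4 kb away. The inner anchor, on the minus strand, had a CTCF score of 1957 and a Rad21 score of 1619 and lay between Cyp3a11 and Cyp3a25. Cyp3a11, the main drug-inducible Cyp3a enzyme of mouse liver, had 2 CTCF peaks in its window, of scores 138 and 60, with no Rad21 peak on either. Its 3 Rad21 peaks, of scores 62, 65 and 94, had no CTCF peak, and the summit of the first lay 53 bp from its start. From this start to 38.7 kb upstream of it, short of the inner anchor, 8 Rad21 peaks of scores 30 to 94 were listed, and all 8 lacked CTCF. Upstream of Cyp3a25, a Rad21 peak of score 301 was the strongest Rad21 peak without CTCF in the 4 subfamilies. Cyp3a16, Cyp3a41b, Cyp3a41a and Cyp3a44 lay in a stretch of 505 kb without a CTCF summit. This stretch held 50000 unknown bases, and at Cyp3a41b and Cyp3a41a only 36.2% and 38.4% of 50-base words occurred once.

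The Cyp4a array held the fewest peaks of the 4 within its gene span, with further CTCF peaks of scores up to 5533 between it and its left anchor. Over 323 kb (chr4:114971651-115294207) it contained 1 CTCF peak, between Cyp4a12a and Cyp4a12b, and 2 Rad21 peaks, of scores 60 and 73, both in the window of Cyp4a14 and neither with a CTCF peak. Cyp4a12a, a fatty acid hydroxylase prominent in male liver, had a CTCF peak of score 27 with 18 fragments at its summit, close to the weakest listed for any member (17 fragments). The windows of Cyp4a12b, Cyp4a10, Cyp4a31 and Cyp4a32 held no peak of any list. In the joined windows of all 6 Cyp4a genes 70.4% of 50-base words occurred once, and in the windows of these 4 between 71.3% and 82.0%.

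The Cyp2d array held the most peaks of the 4 within its gene span. Over 424 kb (chr15:82200958-82624675) it held 18 CTCF and 35 Rad21 peaks. An intra-TAD anchor on the minus strand, 10.5 kb from the start of Cyp2d10, had scores of 4677 for CTCF and 3893 for Rad21. Together with a peak of 2003 upstream of Cyp2d9, the male-specific testosterone 16-alpha hydroxylase, it fell in the part of the array that runs from Cyp2d22 to Cyp2d9. Beyond Cyp2d9 no CTCF summit was listed for 166 kb, a stretch that contained Cyp2d12 and Cyp2d34 and held the summits of 5 Rad21 peaks. Those of scores 138 and 339 overlapped the CTCF peaks at its ends, and those of 94, 132 and 60 had no CTCF peak. In this stretch 63.8% of 50-base words occurred once, and 2166 of 74791 autosomal intervals between CTCF summits (2.90%) were at least as wide. Apart from the peaks of 4677 and 2003, most CTCF peaks of the array were weak. Near the start of Cyp2d22 2 CTCF peaks scored 41 and 49, and near that of Cyp2d26 they scored 161 and 91, while Rad21 reached 422 and 474 there. At these starts the local background estimated by the peak caller was 10.2 to 12.8 fragments for CTCF, beside a median of 9.34 over peaks in member windows, and 19.3 to 19.7 for Rad21, beside a median of 8.91. The part of background in these calls was not tested.

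**Figure D1:**
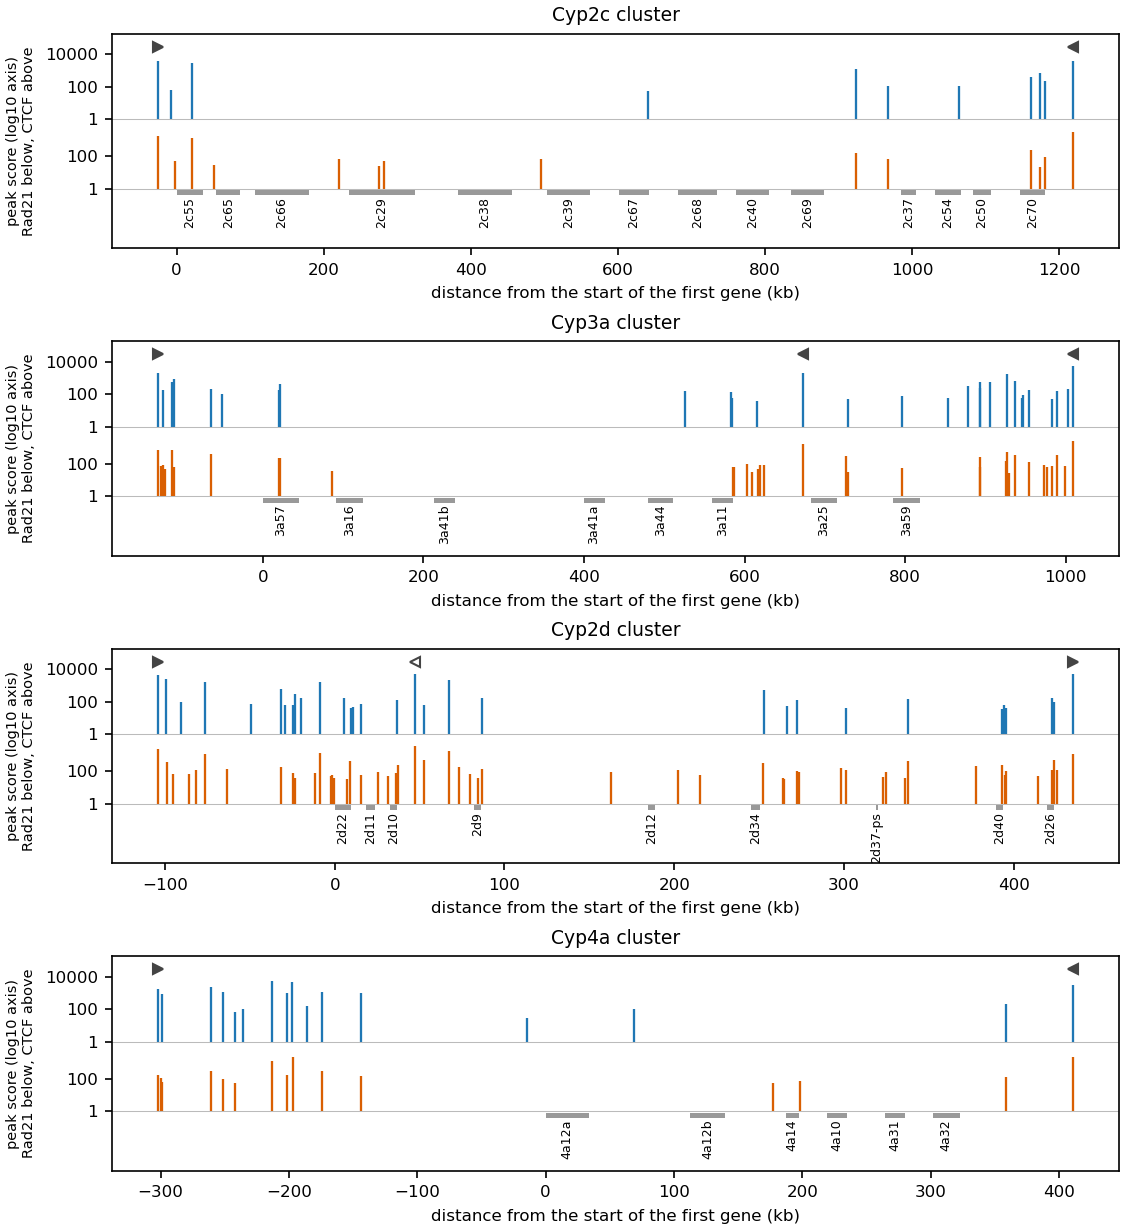
Maps of the Cyp2c, Cyp3a, Cyp2d and Cyp4a arrays with distance from the start of the first gene (kb) on the x axis and peak score on a log10 y axis, CTCF peaks in blue above and Rad21 peaks in orange below. Grey boxes are the member genes, filled arrowheads TAD anchors and open arrowheads intra-TAD anchors, pointing along the motif. The Cyp2c array has 619.9 kb free of CTCF summits inside, and the 18 CTCF peaks of Cyp2d lie on either side of a stretch of 166 kb without any.

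Over joined windows, the 4 subfamilies had 38 CTCF peaks in 2331 kb, or 1.63 per 100 kb (95% interval 1.15 to 2.24). Single P450 genes had 136 in 1786 kb, or 7.62 (6.39 to 9.01), and other clusters 77, or 4.25 (3.36 to 5.31). All autosomal protein-coding genes had 4.63. The interval of the 4 subfamilies thus lay below, and that of the single genes above, the value for all genes. Neither held under every setting. With genes called single beyond 40 kb, which counts 17 arrayed genes as single, the single genes had 4.44 (3.78 to 5.17), and among genes with at least 80% unique 50-base words the 4 subfamilies had 3.52 (2.26 to 5.24), both intervals that include 4.63. By subfamily the CTCF density was 0.718 at Cyp2c, 1.39 at Cyp3a, 6.44 (3.99 to 9.84) at Cyp2d and 0.316 at Cyp4a. The low total rested on Cyp2c, Cyp3a and Cyp4a, which together had 0.848 CTCF peaks per 100 kb (0.494 to 1.36), while without Cyp2c the value was 2.46 (1.66 to 3.52), and the Cyp2d interval overlapped that of the single genes.

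Rad21 followed the same order among the arrays. Its density was 0.988 per 100 kb at Cyp2c, 1.74 at Cyp3a, 0.632 at Cyp4a and 11.3 (7.99 to 15.6) at Cyp2d, against 7.39 (6.19 to 8.77) at single genes and 4.04 over all genes. Over the 4 subfamilies it was 2.57 (1.96 to 3.31), 1.15 (0.727 to 1.72) without Cyp2d and 4.03 (2.98 to 5.32) without Cyp2c, the last close to the value over all genes. Among genes with at least 80% unique words the 4 subfamilies had 5.72 (4.07 to 7.82), above the value over all genes, and with genes called single beyond 40 kb the single genes had 4.71 (4.03 to 5.47), an interval that includes it. The place of the 4 subfamilies below all genes for Rad21 thus did not hold under every setting. Anchors numbered 3 at the 4 subfamilies, or 0.129 per 100 kb (0.0265 to 0.376), and 37 at single genes, or 2.07 (1.46 to 2.86). The value over all genes was 0.906. The plot of densities shows the 2 factors side by side.

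**Figure D2:**
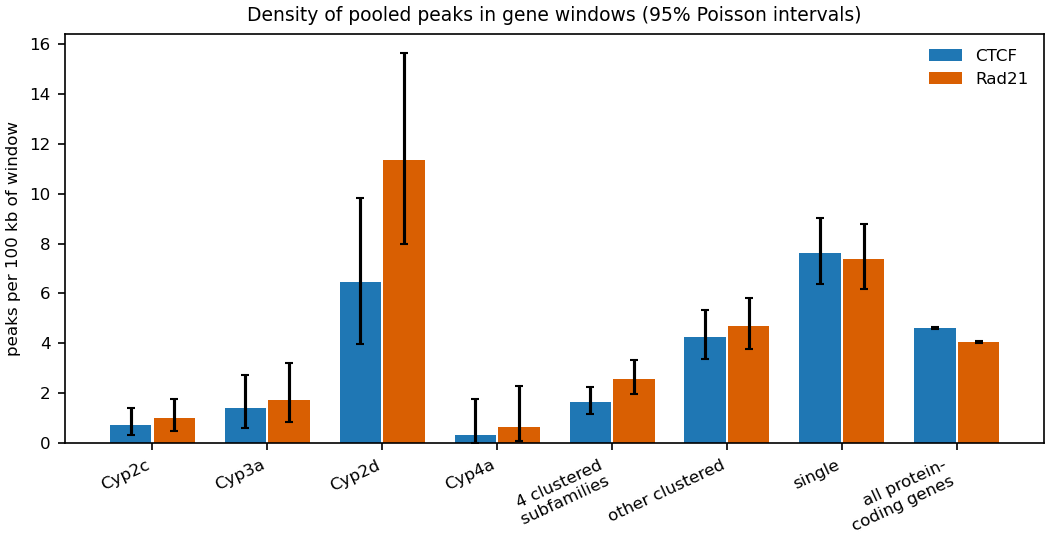
CTCF (blue) and Rad21 (orange) peaks per 100 kb of joined gene windows for each array, the 4 subfamilies together, other clusters, single P450 genes and all autosomal protein-coding genes, with 95% exact Poisson intervals that cover counting error only. Cyp2c, Cyp3a and Cyp4a lie below 2 peaks per 100 kb for both factors, and Cyp2d reaches 11.3 for Rad21.

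Reads that map to more than 1 place were not kept by the authors, and the arrays contain repeated sequence. The share of 50-base words that occurred once in mm9 was 71.0% in the windows of the 4 subfamilies, 93.9% at single genes and 91.3% over all genes. Per 100 kb of such unique words, the CTCF density was 2.30 at the 4 subfamilies, 8.11 at single genes and 5.07 over all genes, and the Rad21 density 3.63, 7.88 and 4.43. Among genes with at least 80% unique words, CTCF density was 3.52 (2.26 to 5.24) at 13 genes of the 4 subfamilies and 7.63 (6.39 to 9.05) at 25 single genes. For Rad21 the same genes gave 5.72 (4.07 to 7.82) and 7.29 (6.08 to 8.67), with intervals that overlap. With Cyp2d left out as well, the 7 remaining genes had 1.43 CTCF (0.575 to 2.95) and 2.25 Rad21 (1.12 to 4.02) peaks per 100 kb. These genes included Cyp4a14 and Cyp4a31, where 83.1% and 82.0% of words were unique and no CTCF peak was listed. Cyp2c65 and Cyp2c39 also had none, whereas Cyp2c55, Cyp2c70 and Cyp3a57 had 2, 3 and 2. The part of repeated sequence in the low densities was not tested beyond these values.

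**Figure D3:**
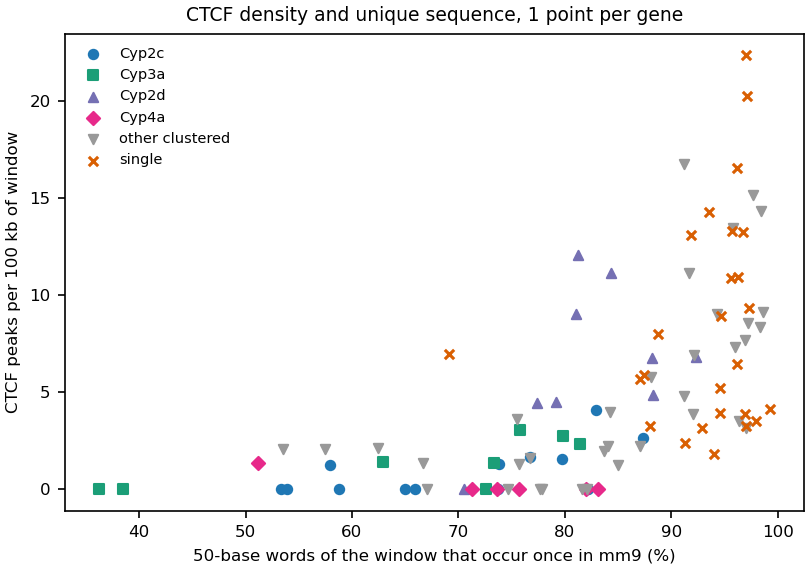
CTCF peaks per 100 kb of window against the percentage of 50-base words in that window that occur once in mm9, 1 point for each of the 98 genes, with the arrays, other clusters and single genes marked separately. Single genes lie mostly above 85% unique words, and neighbouring genes of an array share peaks and sequence, so the points are not independent.

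Seen gene by gene, 75 of 98 members had a CTCF peak in the window, against 84.1% of all genes, and 77 had a Rad21 peak, against 81.4%. These shares split by position. All 26 single genes had both, whereas 20 of the 37 genes of the 4 subfamilies had a CTCF peak (54.1%, 95% Wilson interval 38.4 to 69.0) and 21 a Rad21 peak. Neighbouring genes can share a peak, so intervals over genes of clusters are too narrow. An anchor lay in the window of 36 members, compared with 51.6% of all genes. These were 16 of 26 single genes, 17 of 35 in other clusters and 3 of 37 in the 4 subfamilies, namely Cyp3a25, Cyp2d10 and Cyp2d26. No peak of any list lay in the windows of 14 members, against 15.4% of all genes, 5 of them in Cyp2c, 4 in Cyp4a, 2 in Cyp3a and none single.

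Separation of neighbours by CTCF also differed between arrays. Among pairs of adjacent genes without another protein-coding gene in between, 26 of 56 P450 pairs had a CTCF peak in the intervening sequence and 9 had an anchor, against 64.8% and 28.5% of all adjacent pairs. The count was 1 of 13 pairs in Cyp2c, 1 of 5 in Cyp4a, 3 of 7 in Cyp3a, 4 of 6 in Cyp2d and 16 of 23 in other clusters. The intervening sequence of the P450 pairs was longer than usual, with a median of 40.05 kb against 17.4 kb.

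At transcription starts, within 1 kb, a CTCF peak was found for 29 of 98 members (29.6%, 21.5 to 39.3) against 56.2% of all genes, and a Rad21 peak for 35 (35.7%, 26.9 to 45.6) against 53.5%. At single genes the interval included the value of all genes, with CTCF at the start of 16 of 26 (61.5%, 42.5 to 77.6), compared with 7 of 35 in other clusters and 6 of 37 in the 4 subfamilies, where the genes were Cyp2c70, Cyp3a11, Cyp2d22, Cyp2d10, Cyp2d40 and Cyp2d26. In other clusters they were Cyp1a1, Cyp26a1, Cyp2j5, Cyp2j6, Cyp2j9, Cyp4f14 and Cyp4f17. Besides the genes described by role further on, the single ones were Cyp20a1, Cyp3a13, Cyp4v3 and Cyp2w1. Rad21 without CTCF at the start was found for Cyp1a2, Cyp2a12, Cyp2c44, Cyp2e1, Cyp4f13, Cyp4f15 and Cyp4f39. The median distance from a gene start to the nearest CTCF summit was 18.5 kb in the 4 subfamilies, 9.83 kb in other clusters and 0.767 kb at single genes, against 0.789 kb over all genes. To the nearest anchor the medians were 146 kb, 37.5 kb and 16.1 kb, against 34.0 kb.

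**Figure D4:**
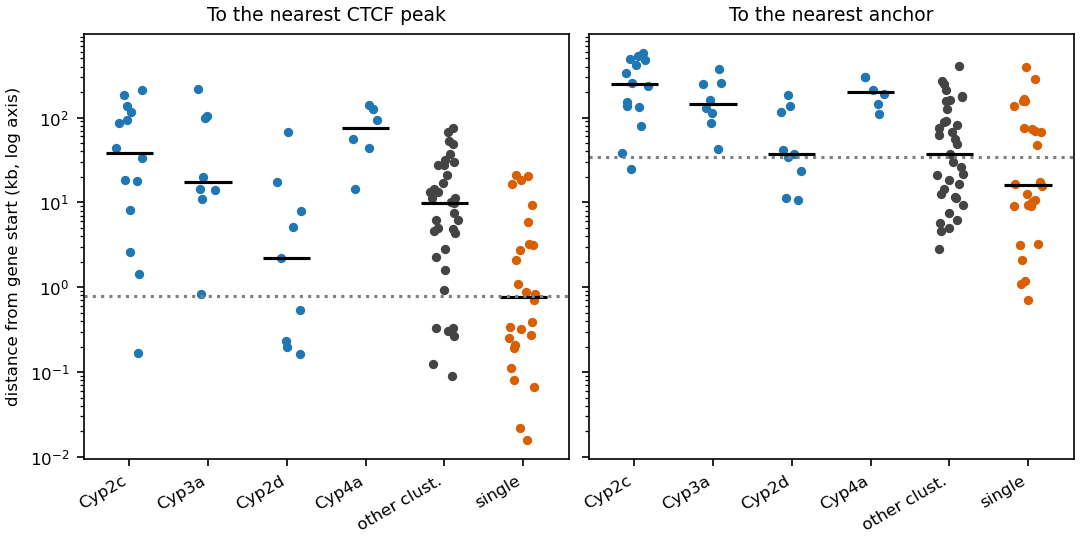
Distance in kb, on a log axis, from the 5′ end of each member gene to the nearest CTCF summit (left) and nearest anchor (right), 1 point per gene, with the group median as a bar and the median of all autosomal protein-coding genes as a dotted line (0.789 kb and 34.0 kb). Most Cyp2c, Cyp3a and Cyp4a genes lie above both lines, and single genes scatter around or below them.

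The peaks in the arrays were also weaker. The median CTCF score was 134.5 in the 4 subfamilies, 399.5 at single genes and 320.0 over all gene windows, and the median number of fragments at the summit 37.5, 77.5 and 70.0. Of the 38 CTCF peaks, 23 were in no class, so that they had not been listed for at least 2 livers (60.5%, against 25.7% at single genes and 31.4% over all genes). A motif match above the threshold reached by 90% of the training anchors was present in 15 of 38 (39.5%, 25.6 to 55.3), in 83 of 136 at single genes (61.0%, 52.6 to 68.8) and in 64.1% of all autosomal CTCF peaks. Among regions of the same widths 10 kb away without a CTCF peak, 7.70% had such a match, on either strand.

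The share of CTCF peaks with cohesin moved with how overlap was counted. A Rad21 peak overlapped 27 of 38 CTCF peaks in the 4 subfamilies (71.1%, 55.2 to 83.0), 96 of 136 at single genes (70.6%, 62.4 to 77.6) and 67.5% over all genes. With summits required to lie within 100 bp, the shares were 44.7% (30.1 to 60.3) in the 4 subfamilies and 61.0% (52.6 to 68.8) at single genes, again with overlapping intervals. The reverse share differed. Rad21 peaks without a CTCF peak, called cohesin-non-CTCF (CNC) sites, made up 33 of 60 Rad21 peaks in the 4 subfamilies (55.0%, 42.5 to 66.9), 26 of 85 in other clusters (30.6%, 21.8 to 41.0) and 35 of 132 at single genes (26.5%, 19.7 to 34.6), against 21.9% over all genes. With Rad21 scores of at least 100, the CNC counts were 5 of 25 in the 4 subfamilies (interval 8.86 to 39.1%) and 8 of 84 at single genes (9.52%, 4.91 to 17.7), with 7.45% over all genes, and the intervals overlapped. CNC peaks of the 4 subfamilies were weak, with a median score of 60.0 against 241 for their co-bound Rad21 peaks, as they were among all autosomal peaks (65.0 against 246).

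A CNC peak lay in the window of 48 members (48.98%) against 37.5% of all genes, and of all 9 Cyp2d genes. Neighbouring genes shared some of these peaks, so no interval is given. At Cyp2e1, the ethanol-inducible enzyme, 5 of 6 Rad21 peaks were CNC, with scores of 372, 132, 100, 46 and 23, and that of 100 had its summit 138 bp from the start. Cyp2a12, a steroid hydroxylase, had no CTCF peak in its window and 3 CNC peaks, 2 of them at its start. Cyp2f2, which activates naphthalene, had 5 CNC peaks among 10. A CNC peak of score 78 also lay 21 bp from the start of Cyp1a2, an abundant liver enzyme of drug metabolism, whose window held 4 co-bound CTCF peaks, 2 of them intra-TAD anchors of scores 1727 and 2445. Within 5 kb of a member start lay 15 of 33 CNC peaks in the 4 subfamilies, 16 of 26 in other clusters and 7 of 35 at single genes, beside 9 of 27, 14 of 59 and 31 of 97 co-bound Rad21 peaks.

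The functional lists overlapped with position, and the xenobiotic list consists mostly of genes in the 4 arrays and other clusters. All 7 genes of the bile acid and sterol list, each of them single, had CTCF and Rad21 at a start, against 56.2% and 53.5% of all genes. The list does not include Cyp2c70, which was kept with its array. The CTCF scores at these starts were low to intermediate at several. They were 55 at Cyp7a1, the rate-limiting enzyme of bile acid synthesis, 128 at Cyp8b1, which sets the share of cholic acid, and 206 at Cyp7b1, an oxysterol hydroxylase. At Cyp51, the sterol 14-demethylase, the score was 250, at Cyp39a1 it was 440, and at Cyp27a1, which oxidizes the sterol side chain, 1193. Cyp46a1, the cholesterol 24-hydroxylase known from brain, had an intra-TAD anchor of score 9179 at 1.19 kb from its start and a peak of 204 nearer to it. At Cyp7b1, Cyp51, Cyp39a1 and Cyp27a1 the start peak belonged to no anchor class but had been seen in at least 2 livers with cohesin (other CAC), as had the weaker peak at Cyp46a1. At Cyp8b1 it was classed as lone CTCF, and at Cyp7a1 it had no class. In the pooled lists both of these start peaks nevertheless overlapped a Rad21 peak, of score 344 at Cyp8b1 and 119 at Cyp7a1.

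The 6 genes of vitamin A and D metabolism all had an anchor in the window, against 51.6% of all genes. Cyp26a1 and Cyp26c1 are neighbours and shared 1 TAD anchor, which was counted for both. Of the 6 genes, 4 had CTCF at a start, near the 56.2% of all genes. The scores at those starts were 3174 at Cyp24a1, 1578 at Cyp2r1, the vitamin D 25-hydroxylase of liver, 709 at Cyp26a1 and 111 at Cyp27b1. Cyp27b1, which makes active vitamin D in kidney, had the CTCF peak of highest score in any member window, an intra-TAD anchor 17.4 kb from its start. It scored 11117 with 1017 fragments, fewer than the 1138 at the Cyp24a1 anchor described next. Cyp24a1, which degrades active vitamin D, had a TAD anchor of score 9896 with 1138 fragments, located in the neighbouring gene Pfdn4. No pooled Rad21 peak overlapped this anchor, and its local background of 59.4 fragments was the highest of any CTCF peak in member windows. Cyp26b1, which degrades retinoic acid, had a TAD anchor of 6891 inside the gene. Cyp2ab1 had a peak of score 9057 that was not an anchor. The motif matches of these 5 strongest sites, in the order Cyp27b1, Cyp24a1, Cyp46a1, Cyp2ab1 and Cyp26b1, are given because they show how far sequence can depart from the consensus at strong peaks.
Cyp27b1 (chr10:126467945-126467973, minus strand): ccctcCTGCCAGCAGGTGGCAGCAtcctc
Cyp24a1 (chr2:170336638-170336666, minus strand): agccaCGGCCAGCAGGGGGAGCGCtgggt
Cyp46a1 (chr12:109571389-109571417, plus strand): gctcgCTACCACACGGGGGCGCGGtggca
Cyp2ab1 (chr16:20302512-20302540, minus strand): ctgaaCGGCCTCCAGGTGGCGCTCtagac
Cyp26b1 (chr6:84540485-84540513, minus strand): aaaacTAACCACCAGGTGGGGTTCcaagg

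These 5 sites matched the consensus at 12 to 14 of 19 positions, beside 11 to 14 at the array anchors, whose peak scores were lower. Deposited motif scores ranged from 12.1 at Cyp26b1 to 22.8 at Cyp27b1. The order of motif scores was not that of the peak scores.

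Of the 6 steroid hormone genes, which act mainly in adrenal gland and gonads, Cyp21a1 alone had CTCF at a start (score 1053). An anchor lay in the window of 4, near the 51.6% of all genes. The Rad21 peak of highest score in any member window, at 5751, was in the gene of Cyp17a1, 2.06 kb from its start. Cyp11a1, which starts steroid synthesis from cholesterol, had a Rad21 peak of 3762 in its window, 23.7 kb away within Ccdc33. The other Rad21 peaks among the 5 strongest lay in the windows of Cyp2w1 (5143), Cyp2d10 and Cyp2u1 (3453). Among the 46 xenobiotic genes 32 had a CTCF peak, 9 an anchor and 9 CTCF at a start, against 84.1%, 51.6% and 56.2% of all genes. Outside the arrays, Cyp1b1, which oxidizes polycyclic hydrocarbons and estrogens, had an intra-TAD anchor of score 5325 at 0.705 kb from its start, and the window pair of Cyp1a1 and Cyp1a2 had 13.5 CTCF peaks per 100 kb. Of the 26 fatty acid and eicosanoid genes 6 had CTCF at a start, against the same 56.2%. Within this list the Cyp4f cluster had 7.60 CTCF peaks per 100 kb with 7 anchors, and the Cyp2j cluster 1.53 with 4.

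**Figure D5:**
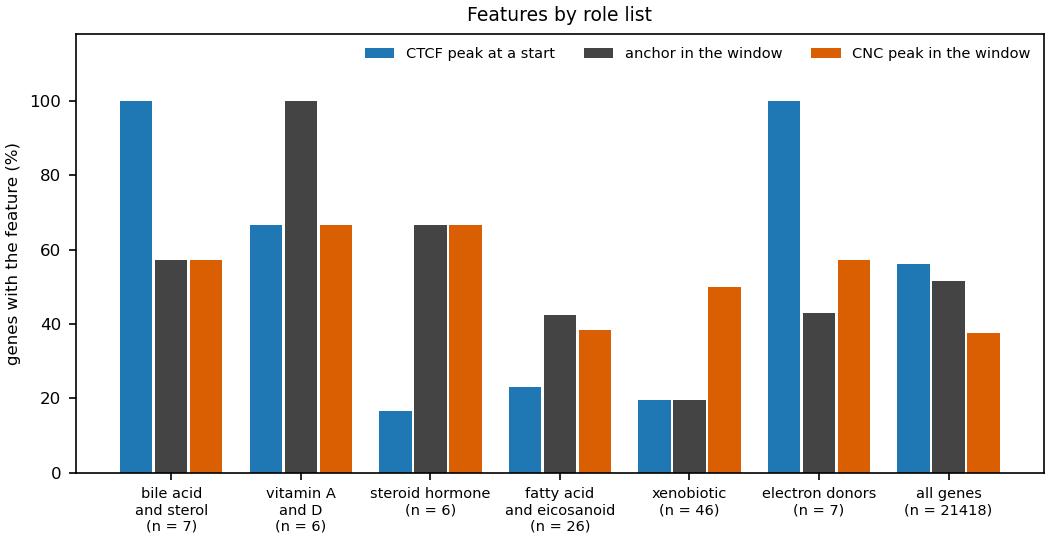
Percentage of genes with a CTCF peak within 1 kb of a start (blue), an anchor in the window (dark grey) and a CNC peak in the window (orange), for 5 functional lists of P450 genes, the electron donors of P450 enzymes and all autosomal protein-coding genes. All 7 bile acid and sterol genes have CTCF at a start, compared with 9 of 46 xenobiotic genes and 56.2% of all genes.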

How the data were processed

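The deposited lists were made by the authors from the libraries of each factor merged before mapping. Reads were mapped to mm9 with Bowtie2, keeping unique positions, and peaks were called with MACS2, per the labels and the study's methods. Each deposited peak has a score (10 times the −log10 q-value), a fold ratio of summit pileup to local background, and −log10 p- and q-values. The class list adds a motif score and strand. The lists hold no read totals, so no depth per sample was computed from them. Summit fragments and local background were solved from the deposited fold and −log10 p, and came out whole within 0.1 for 99.999% of CTCF and 99.997% of Rad21 peaks.

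Genes and starts came from GENCODE annotation of the same build. Overlap meant at least 1 bp. Shares have 95% Wilson and densities 95% exact Poisson intervals. A 50-base word was unique if it occurred once in mm9 on either strand (every 500 bp for all genes). CTCF motifs of 19 bases were learned by expectation maximization. Python 3.11.15, numpy 2.4.6, pandas 2.3.3, scipy 1.17.1, numba 0.67.0 and pysam 0.24.0 were used, and the counting steps were checked on simulated data. Named genes were the 4 arrayed subfamilies, members of role lists, those with the 5 strongest CTCF or Rad21 peaks, those with a peak at a start, and, were there 10 or fewer, those without peaks. Genes and lists were chosen with earlier results of these data known. Pseudogenes were left out except Cyp2d37-ps and Cyp2j7-ps, which the annotation types as protein-coding.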

Additional observations from a re-analysis of the deposited data

How the results depend on the processing

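Of 70 alternative values, 44 stayed inside the 95% interval of the reported value, and CTCF density was lower in the 4 subfamilies than at single genes under all 8 settings computed for both, as was Rad21 density under all 7. Windows of 50 kb gave 85.7% of members with a CTCF peak, 86.7% with a Rad21 peak and 50% with an anchor, and a score of at least 100 gave 65.3% with a Rad21 peak. That score minimum lowered CTCF density to 0.944 (4 subfamilies) and 6.27 (single) and Rad21 density to 1.07 and 4.70. Unique words gave 2.30 for CTCF and 3.63 for Rad21 in the 4 subfamilies. Classed sites gave 0.643 in the 4 subfamilies and 5.66 at single genes. Calling genes single beyond 40 kb moved 17 arrayed genes out of the 4 subfamilies and gave 4.44 CTCF and 4.71 Rad21 peaks at single genes. Added after the data were seen, leaving out Cyp2c gave 2.46 CTCF and 4.03 Rad21 in the 4 subfamilies, leaving out Cyp2d 0.848 and 1.15, and genes with at least 80% unique words 3.52 and 5.72, or 1.43 for CTCF without Cyp2d. Summits within 100 bp gave 44.7% and 61.0% of CTCF peaks co-bound in the 4 subfamilies and at single genes, and CNC shares of 71.7% and 37.1%. With a Rad21 score of at least 100 the CNC shares were 20% and 9.52%. The cause of these shifts was not tested. Pooled lists hold no value per liver, so no library could be left out, and no paired analysis was possible because the replicates were merged. Repeated sequence limits what can be listed inside the arrays.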

Other observations

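P450 enzymes draw electrons from a small set of partner proteins, and the genes of these donors were read in the same way. All 7 donor genes had CTCF and Rad21 at a start, against 56.2% and 53.5% of all genes, and 3 had an anchor in the window, near the 51.6% of all genes. The widest set of sites was at Por, the flavoprotein that passes electrons from NADPH to microsomal P450 enzymes, with 15 CTCF and 14 Rad21 peaks in its window and no anchor. Fdx1, the ferredoxin of the mitochondrial P450 enzymes, had 5 CTCF peaks, 2 of them anchors, and a strongest CTCF score of 7190. Cyb5r3, the reductase of cytochrome b5, had 3 CTCF and 3 Rad21 peaks, all co-bound, and 2 intra-TAD anchors.

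In the class list, sites that overlapped Stag1, Stag2 and Top2b peaks of public data were marked. Among the 176 classed sites in P450 windows 71.6% were marked for Stag1, 92.6% for Stag2 and 51.7% for Top2b, against 69.4%, 88.4% and 55.8% over all gene windows. The order of these 3 marks in the file was taken from the study's own listing, since the file has no header.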
